A study of Rattus norvegicus with 16 samples.

Results

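Ttr, Sostdc1, Enpp2, Igf2, Igfbp2 and Pon1 encode proteins that are secreted, and all but Pon1 are well known as products of the choroid plexus or of its stroma and the neighbouring meninges. The 6 genes were chosen by name, with their low levels in stressed animals already known from these arrays, so their differences between groups are described here and not tested. Each was found through the RefSeq name of its probe target, and each has 1 probe with 1 spot per array. They are 6 of the 11344 gene symbols whose probes were bright enough to test, out of 13903 symbols on the array.

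The samples are hippocampal RNA of male Sprague-Dawley rats on 16 single-colour Agilent arrays, 4 arrays in each of 4 groups. The stressed rats had 8 weeks of chronic mild stress (CMS), in which mild stressors alternate, and were labelled depression-susceptible, anxiety-susceptible or insusceptible, and control rats had no CMS. How the stressed rats were sorted, their age at dissection, and whether each array is a separate animal are not given in the sources used here. No transgene or allele is named for any group. The RNA was depleted of ribosomal RNA and copied by random priming into cRNA that carried Cy3.

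The choroid plexus is a fold of secretory epithelium over a vascular stroma that hangs in the brain ventricles, next to the hippocampus, and makes cerebrospinal fluid. Its epithelial cells secrete transthyretin, which carries thyroid hormone and retinol-binding protein, and growth factors that reach the brain through the fluid. IGF2 is made in the choroid plexus and in the meninges and acts through the IGF1 and insulin receptors, while the IGF2 receptor clears it and IGF-binding proteins hold it in the extracellular space. In a piece of bulk tissue, fewer cells of a type and less RNA per cell cannot be told apart, and how much choroid plexus a dissected hippocampus carries is not recorded in the labels.

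Array signals are given as log2 of the background-subtracted signal minus the 75th percentile of the same array, called the log2 level here. That percentile was 2863 to 3348 signal units for depression-susceptible and control arrays (day 1 of scanning) and 1083 to 1259 for the other groups (day 2). Both day 1 slides, 1 and 2, carried 2 depression-susceptible and 2 control arrays, while all anxiety-susceptible arrays were on slide 3 and all insusceptible ones on slide 4. Group can therefore be told apart from slide and day only between depression-susceptible and control arrays, and position on the slide followed the group there too. Arrays of a group on a slide differed by a median SD of 0.043 on the log2 scale, against 0.046 for the noise of repeated spots averaged over their number, over 3897 probes with 3 or more spots. They were therefore averaged into 6 samples (2 depression-susceptible, 1 anxiety-susceptible, 1 insusceptible and 2 control), and every standard error (SE) and adjusted p below comes from the limma fit to these 6 samples, with Benjamini-Hochberg adjustment over all probes tested. The lone samples are assumed to vary like the others, so these errors measure the spread between slides and not between animals.

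Promoter sequence was at hand for 4 of the 6 genes, Ttr, Igf2, Igfbp2 and Pon1, in 5 annotated starts from RefSeq on assembly GRCr8. It is shown because Ttr went its own way in one group while the other 3 were lower in every stressed group. Each run is the 250 bases before an annotated start, 5′ to 3′ on the strand of the gene, and capitals mark GGGCGG, the GC box. The windows are chr18:12218508-12218757 on the plus strand for Ttr, chr1:207250476-207250725 on the minus strand for Igf2, chr9:81864561-81864810 on the plus strand for Igfbp2 and chr4:34287861-34288110 on the minus strand for Pon1.
Ttr: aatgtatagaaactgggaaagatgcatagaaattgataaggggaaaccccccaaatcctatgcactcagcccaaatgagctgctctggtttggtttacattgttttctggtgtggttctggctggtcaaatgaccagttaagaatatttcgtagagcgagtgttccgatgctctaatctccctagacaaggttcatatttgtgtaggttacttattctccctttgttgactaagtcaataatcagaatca
Igf2: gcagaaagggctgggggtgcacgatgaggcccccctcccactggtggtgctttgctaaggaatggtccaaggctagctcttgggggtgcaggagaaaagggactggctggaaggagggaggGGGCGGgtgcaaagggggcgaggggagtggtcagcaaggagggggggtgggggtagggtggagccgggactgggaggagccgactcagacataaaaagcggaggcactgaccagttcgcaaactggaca
Igfbp2: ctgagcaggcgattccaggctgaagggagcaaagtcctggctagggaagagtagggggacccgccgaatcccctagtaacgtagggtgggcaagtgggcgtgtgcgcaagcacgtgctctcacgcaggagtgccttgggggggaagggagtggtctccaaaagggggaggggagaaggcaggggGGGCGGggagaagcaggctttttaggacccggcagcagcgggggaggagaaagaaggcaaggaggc
Pon1: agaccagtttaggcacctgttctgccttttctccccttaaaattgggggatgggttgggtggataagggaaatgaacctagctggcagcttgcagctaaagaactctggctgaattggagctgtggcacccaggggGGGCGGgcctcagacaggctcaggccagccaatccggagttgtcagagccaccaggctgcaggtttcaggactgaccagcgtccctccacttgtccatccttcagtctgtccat
GGGCGG or its reverse complement CCGCCC stood once in the Igf2, Igfbp2 and Pon1 windows, at 129, 66 and 114 bases before the start, and in neither the Ttr window nor the window of another Igf2 start (chr1:207253981-207254230, minus strand). Of 33469 rat promoter windows of this length, 30.5% held it. The Ttr window had 40.4% G and C, against 63.6% for the Igf2 window shown, 64.0% for Igfbp2, 56.4% for Pon1 and a median of 51.2% over all windows. TAATCC, the core bound by OTX-type homeobox proteins, was in none of the 5 windows and in 6.34% of all, the forkhead letters TGTTTAC were in none and in 3.21%, and TATAAA was in none and in 12.9%, each searched on both strands. The GC box was added to the search after the sequences were read, and a match of letters is not a binding site. Only exact letters in the 250 bases before annotated starts were searched, so a missing match does not show that a site is absent.

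Ttr, the transthyretin gene, was lower than control in depression-susceptible and insusceptible rats and higher than control in anxiety-susceptible rats. Its log2 levels were 4.79, 4.84, 5.05 and 5.06 on the depression-susceptible arrays, 6.80, 6.90, 7.03 and 6.94 on the anxiety-susceptible arrays and 3.51, 3.53, 3.46 and 3.52 on the insusceptible arrays, against 6.63, 6.50, 6.36 and 6.26 on the control arrays. No group overlapped another, and the gap between the lowest anxiety-susceptible and the highest control array was the narrowest. The difference from control was -1.50 in depression-susceptible rats (SE 0.14, 2.83-fold lower), 0.48 in anxiety-susceptible rats (SE 0.18, 1.39-fold higher) and -2.93 in insusceptible rats (SE 0.18, 7.62-fold lower). Within slide 1 the depression-susceptible difference was -1.51 and within slide 2 it was -1.49. Before scaling, the Ttr signal was 133270 to 150280 on the anxiety-susceptible arrays against 235064 to 283446 on the control arrays, so the scanned signal was lower and the level relative to the other probes of the array was higher. It stayed above control, at 0.53, under quantile normalization, which also sets arrays to a common scale.

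Sostdc1, which encodes a secreted antagonist of BMP and Wnt ligands, had the widest spread between groups of the 5 genes that were above background on every array. Its log2 levels were -2.42, -2.47, -2.45 and -2.39 on the depression-susceptible arrays, 0.67, 0.74, 0.72 and 0.77 on the anxiety-susceptible arrays and -3.92, -3.91, -3.79 and -3.84 on the insusceptible arrays, against 2.84, 2.82, 2.68 and 2.79 on the control arrays. All 3 stressed groups lay below control and none overlapped. The level was 37.2-fold lower in depression-susceptible rats (log2 difference -5.22, SE 0.08), 4.17-fold lower in anxiety-susceptible rats (-2.06, SE 0.10) and 100-fold lower in insusceptible rats (-6.65, SE 0.10). The differences on slides 1 and 2 were -5.25 and -5.19. In insusceptible rats the unscaled signal was 81.4 to 90.8, against 19549 to 21282 in control rats, and the probe was well above background on all 16 arrays. The size of the insusceptible difference depends on the background correction. It was -5.13 with normexp background correction and -5.79 with normexp on the arrays it could be fitted on.

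Enpp2 encodes autotaxin, the secreted enzyme that makes lysophosphatidic acid, and is transcribed in choroid plexus and also in oligodendrocytes. Its log2 levels were 3.48, 3.29, 3.39 and 3.54 on the depression-susceptible arrays, 4.09, 4.02, 4.05 and 4.02 on the anxiety-susceptible arrays and 3.09, 3.07, 3.11 and 3.07 on the insusceptible arrays, against 5.90, 5.79, 5.56 and 5.49 on the control arrays. The stressed groups stood close to each other and well below control: Enpp2 was 4.79-fold lower in depression-susceptible rats (-2.26, SE 0.14), 3.12-fold lower in anxiety-susceptible rats (-1.64, SE 0.17) and 6.06-fold lower in insusceptible rats (-2.60, SE 0.17). On slides 1 and 2 the depression-susceptible difference was -2.38 and -2.14. The smallest gap between any pair of groups of Enpp2 was 0.34 on the log2 scale, depression-susceptible over insusceptible, and 0.11 under quantile normalization.

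Igf2, the insulin-like growth factor, had log2 levels of 2.54, 2.59, 2.72 and 2.74 on the depression-susceptible arrays, 3.05, 3.06, 2.99 and 3.02 on the anxiety-susceptible arrays and 2.02, 2.04, 2.04 and 1.98 on the insusceptible arrays, against 4.60, 4.62, 4.33 and 4.27 on the control arrays. Igfbp2, which encodes a secreted protein that binds IGF2 and IGF1, had levels of 0.77, 0.92, 0.80 and 0.85 on the depression-susceptible arrays, 1.59, 1.57, 1.58 and 1.62 on the anxiety-susceptible arrays and 0.37, 0.40, 0.40 and 0.35 on the insusceptible arrays, against 2.73, 2.82, 2.71 and 2.69 on the control arrays. Both genes kept the same order of groups, with control highest and insusceptible lowest, and no group overlapped its neighbour. Igf2 was 3.50-fold lower in depression-susceptible rats (-1.81, SE 0.14), 2.68-fold lower in anxiety-susceptible rats (-1.42, SE 0.18) and 5.41-fold lower in insusceptible rats (-2.44, SE 0.18). Igfbp2 was 3.75-fold lower in depression-susceptible rats (-1.91, SE 0.08), 2.22-fold lower in anxiety-susceptible rats (-1.15, SE 0.09) and 5.13-fold lower in insusceptible rats (-2.36, SE 0.09). On slides 1 and 2 the depression-susceptible difference of Igf2 was -1.88 and -1.73, and that of Igfbp2 was -1.95 and -1.86.

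Pon1 encodes paraoxonase 1, an esterase that the liver secretes into blood, where it rides on high-density lipoprotein. Its log2 levels were -6.47, -6.49, -6.34 and -6.40 on the depression-susceptible arrays, -3.59, -3.62, -3.71 and -3.68 on the anxiety-susceptible arrays and -7.37, -7.54, -7.02 and -7.31 on the insusceptible arrays, against -2.21, -2.25, -2.35 and -2.30 on the control arrays. Control arrays were highest and anxiety-susceptible arrays next, and no group overlapped another in these values. Pon1 was 17.7-fold lower in depression-susceptible rats (-4.15, SE 0.09; -4.14 on slide 1 and -4.15 on slide 2) and 2.59-fold lower in anxiety-susceptible rats (-1.37, SE 0.11). The probe was not well above background on any insusceptible array, so only a bound holds there: at least 13.0-fold lower, with the dimmest signal called well above background on each array in place of the lower measured ones. These dim values depend on the background correction: with normexp on the arrays it could be fitted on, the differences in depression-susceptible, anxiety-susceptible and insusceptible rats were -2.74, -0.82 and -1.94. Depression-susceptible and insusceptible rats therefore have no settled order for Pon1. The 3 liver genes tested, with albumin among them, gave 0, 0 and 0 falls in the depression-susceptible, anxiety-susceptible and insusceptible comparisons and 0, 0 and 1 rises; at an unadjusted p under 0.05 there were 0, 0 and 0 falls and 0, 0 and 1 rises, and over 16 arrays 0, 1 and 0 falls and 0, 0 and 1 rises.

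**Figure D1:**
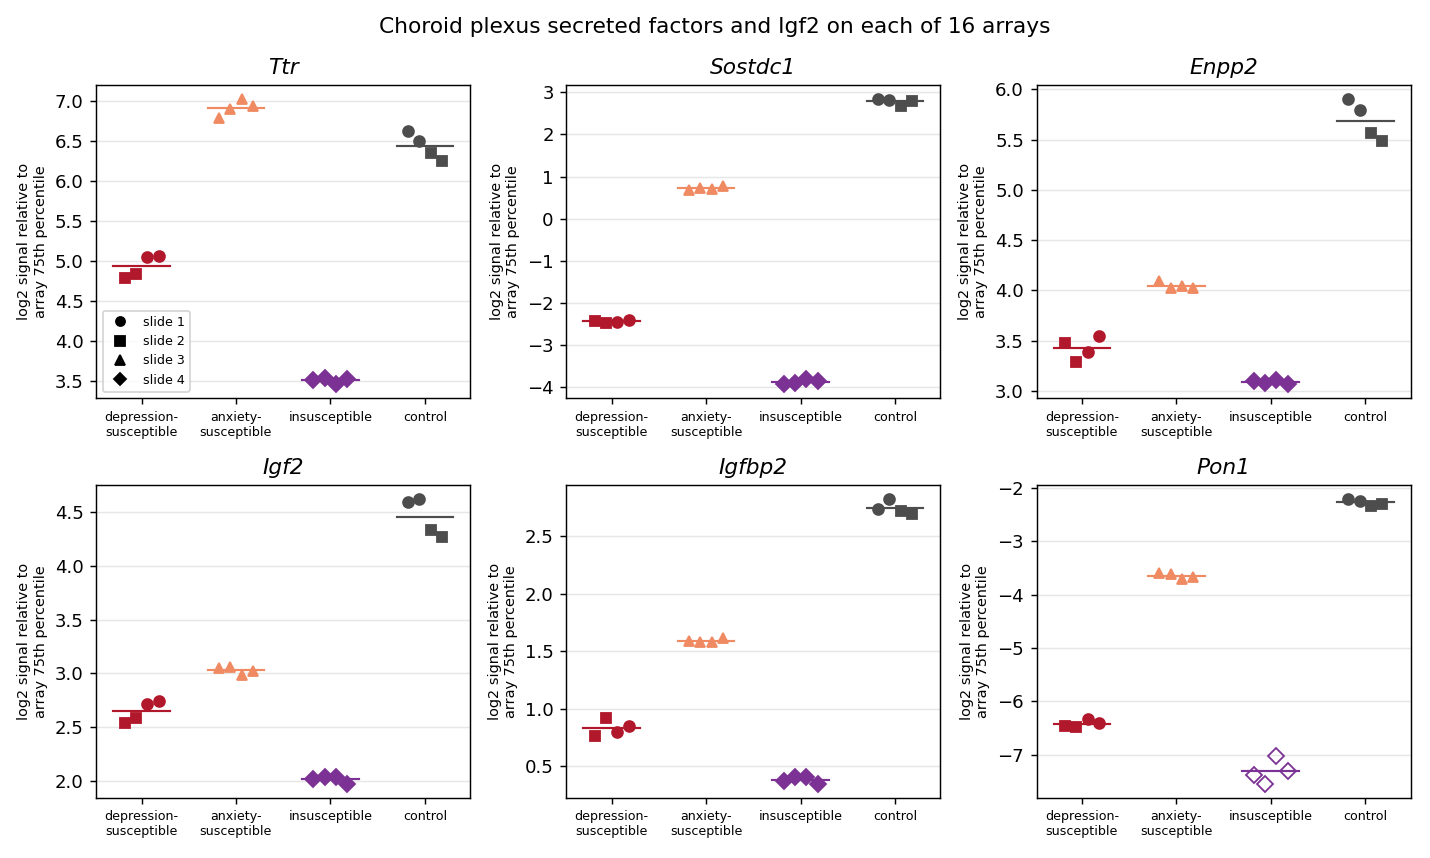
Log2 level of each of the 6 genes (vertical axis, log2 signal relative to the 75th percentile of the array; the axes differ between panels and do not start at 0) on each array, with groups in the order depression-susceptible, anxiety-susceptible, insusceptible and control. Points are arrays with the slide as their shape, open points were not well above background, and bars are group means. Control is highest for 5 genes, and for Ttr the anxiety-susceptible arrays are highest.

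Set side by side, the 6 genes were lower in 6 of 6 cases in depression-susceptible rats, 5 of 6 in anxiety-susceptible rats and 6 of 6 in insusceptible rats, with median log2 differences of -2.08, -1.40 and -2.77. The medians over all probes tested were -0.03, -0.10 and -0.03. Of all probes, 39.8%, 68.6% and 69.3% had arrays that did not overlap with control in depression-susceptible, anxiety-susceptible and insusceptible rats, 21.6%, 41.2% and 37.8% being lower and 18.2%, 27.4% and 31.5% higher. The genes were chosen for such differences, so nothing is read from their count, and the 3 comparisons share the control arrays. In all 6 genes the anxiety-susceptible level was the highest of the stressed groups, and in all but Pon1 the insusceptible level was the lowest. The gap of anxiety-susceptible over insusceptible rats was 4.59 for Sostdc1, 3.41 for Ttr, 1.21 for Igfbp2, 1.01 for Igf2 and 0.96 for Enpp2 on the log2 scale, and no such gap is given for Pon1, which was not well above background in insusceptible rats. Group cannot be told apart from slide in comparisons between stressed groups, nor in those of anxiety-susceptible or insusceptible rats with control rats.

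Under quantile normalization the differences from control were smaller in size for Enpp2, Igf2, Igfbp2 and Sostdc1 in every stressed group. They were smaller for Ttr in depression-susceptible and insusceptible rats, and larger for Ttr in anxiety-susceptible rats and for Pon1 in every stressed group. In anxiety-susceptible rats Enpp2 was -1.09, Igf2 -0.90 and Igfbp2 -0.85, and in insusceptible rats they were -2.06, -1.99 and -2.15. In the authors' deposited table of log2 values Enpp2 was -1.09 and Igf2 -0.90 in anxiety-susceptible rats. The direction was the same for all 6 genes in all 3 comparisons under every alternative that was computed. Blocks, filters, probe averaging and 16 arrays as samples could not move these differences. Only background correction, normalization, the deposited table and leaving out arrays could, and Pon1 was not fitted under the stricter filter.

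**Figure D2:**
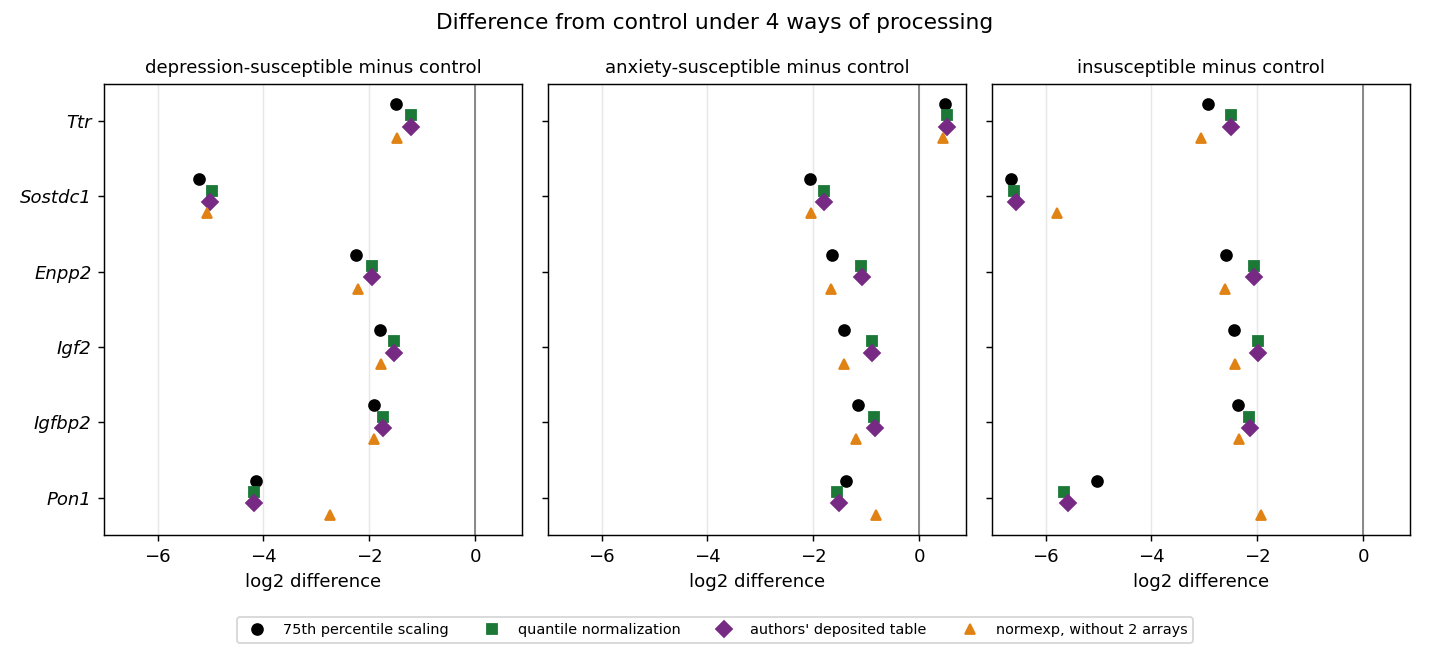
Log2 difference from control (horizontal axis) of the 6 genes in depression-susceptible, anxiety-susceptible and insusceptible rats, from left to right, under 4 ways of processing the arrays, shown by symbol. Only Ttr in anxiety-susceptible rats lies right of 0, between 0.45 and 0.53, and Pon1 moves furthest, to -1.94 in insusceptible rats with normexp.

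Other genes with the profiles most like those of the 6 were looked for among 10946 genes, by the root mean square (RMS) difference between profiles over 16 arrays, each centred on its control mean. Among the 6, the profiles of Enpp2, Igf2 and Igfbp2 lay nearest to each other. Igf2 and Igfbp2 differed from each other by 0.17, Enpp2 differed from Igf2 by 0.27, and Sulf1, an extracellular heparan sulfatase, was 0.20 from Igf2 and 0.25 from Enpp2. Msx1, a homeobox transcription factor, was 0.26 from Igf2 and 0.27 from Igfbp2. Enpp2 was nearest to Smim22 (0.14) and also to Sytl3 (0.24), Igf2 had Tent5a at 0.24 (not well above background on any insusceptible array), and Igfbp2 had Rbm47, an RNA-binding protein gene, at 0.27 and Glb1l at 0.29. Sulf1 was -1.90, -1.75 and -2.30 from control in depression-susceptible, anxiety-susceptible and insusceptible rats, and Msx1 was -1.64, -1.41 and -1.99. The distances above were taken on the log2 level only. Differences under quantile normalization, in the same order, were -1.92, -1.91 and -2.54 for Sulf1, against -1.53, -0.90 and -1.99 for Igf2. For Smim22 they were -2.36, -1.69 and -2.91, against -1.95, -1.09 and -2.06 for Enpp2. Msx1, at -1.48, -1.14 and -1.76, stayed nearer to Igf2. The likeness of Sulf1 to Igf2 and of Smim22 to Enpp2 therefore depends on the scaling.

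Sostdc1 and Pon1 had epithelial genes beside them. Sostdc1 was nearest to the transporter gene Slco1a5 (RMS 0.35), to Mfrp (0.40), which encodes a frizzled-related membrane protein, and to the tight junction gene Cldn2 (0.53). Pon1 was nearest to Kcnj13 (0.28), a potassium channel gene of the epithelium, to the prolactin receptor gene Prlr (0.48) and to Abca4 (0.65). Sostdc1 and Pon1 were each other's nearest among the 6, at 1.03. Pon1, Slco1a5 and Prlr were not well above background on any insusceptible array, and Abca4 was so on 1 of 4, so their distances rest in part on values with only a bound. Mfrp was -5.59, -2.52 and -6.11 and Kcnj13 was -4.19, -1.79 and -4.81 in depression-susceptible, anxiety-susceptible and insusceptible rats.

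Ttr had the most distant nearest profile of the 6. Its nearest profiles were Cnmd (0.60), which encodes the cartilage protein chondromodulin, Itgb6 (0.67), an integrin subunit gene, and Efhb (0.74), and its nearest among the 6 was Igfbp2 (0.89). Cnmd was 0.67 above control in anxiety-susceptible rats and -2.34 in depression-susceptible rats, and it was not well above background on any insusceptible array. Efhb was 0.15 above control in anxiety-susceptible rats and -0.03 under quantile normalization. These likenesses rest on 4 group levels more than on 16 separate samples and carry no test. Arrays share slide, day and scaling across all genes.

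Markers of the choroid plexus epithelium were lower in all 3 stressed groups, as most of the 6 genes were. Of 16 tested, 15, 14 and 15 fell in depression-susceptible, anxiety-susceptible and insusceptible rats and 0 rose, against a background of 2.88%, 18.5% and 15.2% of all probes called lower and 6.73%, 12.4% and 14.9% called higher. Their median differences were -3.38, -1.80 and -3.57, and with scaling to the 75th percentile all 16 lay below control in all 3 groups. Their summed level, in units of the 75th percentile of the array, was 3.53 to 3.90, 9.07 to 9.25 and 3.35 to 3.52 in the 3 stressed groups in that order, against 34.4 to 36.1 in control rats. The control arrays did not overlap with those of any stressed group. Kl passed the filter through the 4 control arrays and 1 anxiety-susceptible array. In depression-susceptible and insusceptible rats it was not well above background, nor were Slc4a5 and Prlr in insusceptible rats, so these falls are bounds. With normexp on the arrays it could be fitted on, Kl was -1.13, 0.20 and 0.11 in the 3 stressed groups in that order. The fall of epithelial genes was known when the 6 were chosen, so the list is no independent evidence, and its part in the difference of the 6 was not tested.

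Single epithelial markers ran from large to small differences. Kcne2, a potassium channel subunit gene, fell, with log2 differences of -2.60 (adjusted p = 0.00203), -1.45 (adjusted p = 0.00672) and -3.04 (adjusted p = 0.00382) by limma in depression-susceptible, anxiety-susceptible and insusceptible rats. Calml4, a calmodulin-like gene, fell, with log2 differences of -1.46 (adjusted p = 0.00408), -1.10 (adjusted p = 0.0102) and -1.38 (adjusted p = 0.00752) in the same order. Slc29a4, a monoamine transporter gene chosen after its values were seen, was not called in any comparison, with differences of -0.15, -0.18 and -0.10. The measured anxiety-susceptible level was the highest of the 3 stressed groups for 15 of the 16 markers.

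The meninges, the other known source of Igf2 and Igfbp2, gave a mixed picture. Of 15 meningeal and fibroblast markers, 3 fell and 2 rose in depression-susceptible rats, 8 fell and 1 rose in anxiety-susceptible rats and 2 fell and 4 rose in insusceptible rats. Their summed level was 44.7 to 48.9, 32.0 to 32.3 and 52.3 to 54.8 in these groups, against 47.0 to 50.8 in control rats. The anxiety-susceptible arrays had the lowest sums and the insusceptible arrays the highest. These sums rest largely on Ptgds, the brightest of the 15 in control rats. Its mean log2 levels were 4.94, 4.33 and 5.25 in the stressed groups in that order, against 4.97 in control rats. The next brightest marker was at 2.57 in control rats. Sums without Ptgds were not computed, so the order of the sums does not describe the other markers. The part of meningeal tissue in the differences of Igf2 and Igfbp2 was not tested. Mgp, the matrix Gla protein gene, fell in all 3 groups, by limma, at -0.63 (adjusted p = 0.0266), -1.32 (adjusted p = 0.00856) and -1.02 (adjusted p = 0.0124). Slc6a13, a GABA and taurine transporter gene of the meninges, chosen after its values were seen, rose by 1.18, 0.66 and 2.14, and Fmod, a small proteoglycan gene chosen the same way, fell, with log2 differences of -1.77, -0.86 and -1.34.

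Other cell types were measured beside these. Oligodendrocyte markers, which matter for Enpp2, gave 0 falls and 0 rises of 11 in depression-susceptible rats by limma (1 fall and 3 rises at an unadjusted p under 0.05, and 7 and 3 over 16 arrays), 2 falls in anxiety-susceptible and 2 falls in insusceptible rats. Their summed level was 223 to 290, 263 to 273 and 235 to 241 in the stressed groups in that order, against 296 to 375 in control rats. These sums follow the brightest markers and depend on the scaling. The median differences of the 11 were -0.21, -0.56 and -0.25, and under quantile normalization 0.037, -0.070 and 0.085. Of 13 endothelial and mural markers, 0, 1 and 0 fell and 0, 1 and 3 rose in the 3 comparisons (0, 5 and 1 lower and 4, 2 and 4 higher at an unadjusted p under 0.05, and 1, 6 and 3 lower and 5, 3 and 6 higher over 16 arrays). Of 11 hippocampal neuron markers 1 fell in each comparison, Wfs1 of CA1 pyramidal cells (-0.74, -1.70 and -1.58), and 0, 0 and 1 rose. All neuronal markers but Prox1 (6 of 16 arrays), Rbfox3 (13) and Tdo2 (15) were well above background on every array. Of the 11, 9, 10 and 7 lay below control in depression-susceptible, anxiety-susceptible and insusceptible rats. Over 16 arrays 5, 7 and 6 were lower and 0, 1 and 2 higher. Their median differences were -0.18, -0.45 and -0.23, and -0.13, -0.33 and -0.18 under quantile normalization. The summed level of the 11 was 49.9 to 53.9, 38.7 to 40.9 and 40.5 to 41.1 in the same order, against 56.6 to 68.6 in control rats. In anxiety-susceptible rats Neurod6, the brightest in controls, was -0.55, and -0.005 under quantile normalization.

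Ependymal and blood genes also moved. Of 6 ependymal markers that could be fitted, 2, 1 and 2 fell and 0 rose in the 3 comparisons by limma (3, 2 and 4 lower and 1, 2 and 0 higher at an unadjusted p under 0.05); Cfap126, a cilia gene, fell, with log2 differences of -1.68, -1.08 and -2.33, but in the authors' deposited table it was 0.95 above control in anxiety-susceptible rats. Of 5 red blood cell markers, 1, 1 and 1 fell and 3, 0 and 2 rose in depression-susceptible, anxiety-susceptible and insusceptible rats. Hbb, the beta globin gene, rose by 4.28 in depression-susceptible rats (adjusted p = 0.00192) and by 0.92 in insusceptible rats (adjusted p = 0.0172), and was -0.46 in anxiety-susceptible rats (adjusted p = 0.0536). Ahsp, the gene of an alpha globin chaperone, fell in all 3 groups by limma, at -0.63 (adjusted p = 0.0407), -1.18 (adjusted p = 0.013) and -1.12 (adjusted p = 0.0142). The depression-susceptible call of Ahsp was lost without control replicate 3, and with normexp on the arrays it could be fitted on its differences were -0.41, -0.13 and -0.098, none past the threshold. The summed level of the 5 was 11.5 to 14.1, 0.504 to 0.552 and 1.27 to 1.35 in the stressed groups in that order, against 0.729 to 0.769 in control rats. The sum was highest in depression-susceptible rats, and the part of blood in the differences of the 6 genes was not tested.

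**Figure D3:**
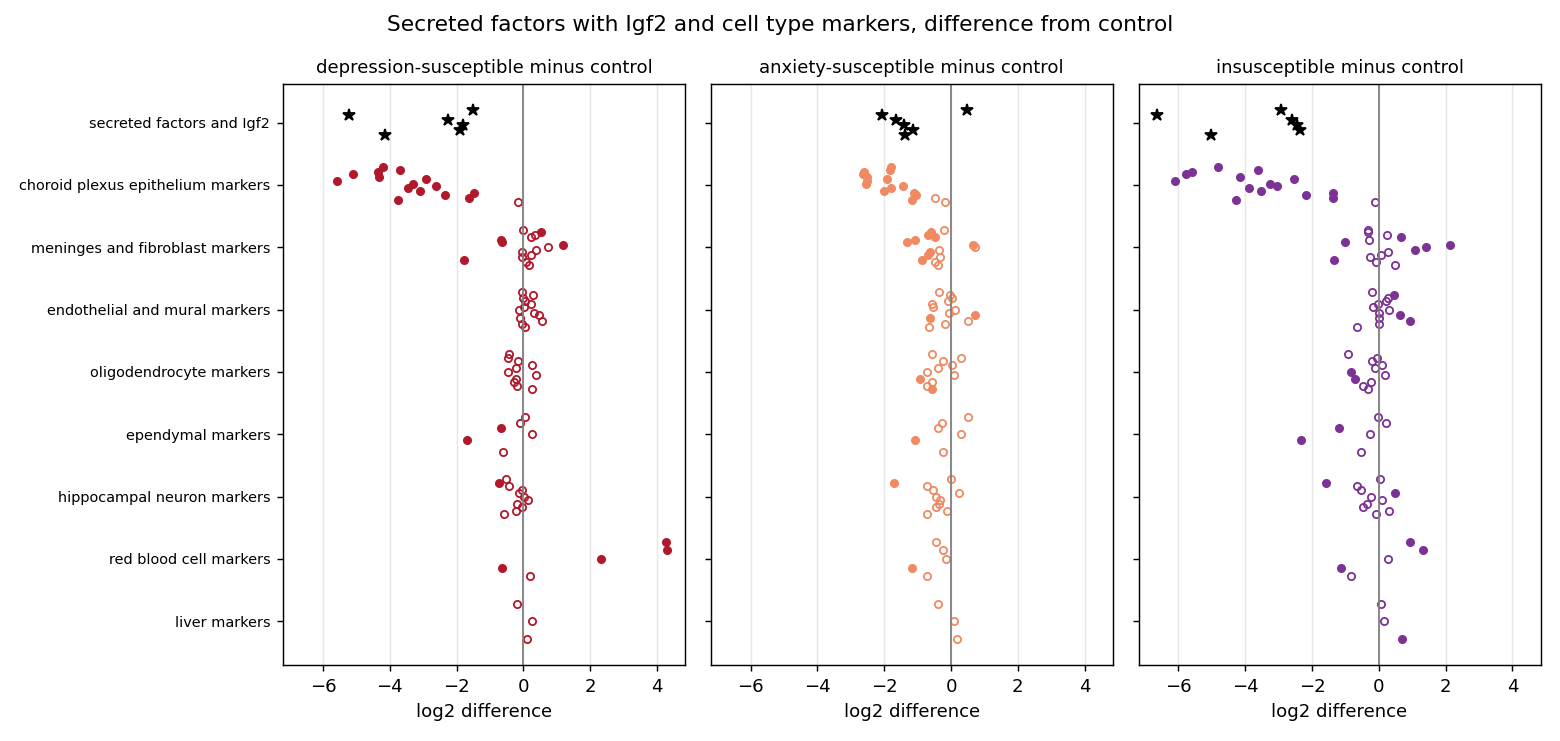
Log2 difference from control (horizontal axis) of the 6 genes (stars) and of the markers of 8 cell types (circles, 1 row per list) in depression-susceptible, anxiety-susceptible and insusceptible rats, from left to right. Filled circles passed limma's threshold. Choroid plexus epithelial markers lie left of 0 in every panel, with medians of -3.38, -1.80 and -3.57.

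Receptors and partners of the 6 proteins were set beside them to see whether the rest of each pathway moved. The 6 lists held 10, 18, 22, 11, 8 and 11 tested genes, in the order given below. Together 8, 24 and 25 of them were called in depression-susceptible, anxiety-susceptible and insusceptible rats. The share of all probes called in either direction was 9.61%, 30.9% and 30.1%. The counts are near what these shares give, so nothing is read from them about the pathways. Leaving out 1 of the 4 samples that share slides brought the calls to 2 and 3 without the control sample of slide 1 and of slide 2, and to 1 and 2 without the depression-susceptible sample of slide 1 and of slide 2, in depression-susceptible rats. In the same order they came to 4, 6, 8 and 8 in anxiety-susceptible rats and to 9, 10, 8 and 8 in insusceptible rats.

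Among 10 genes of the IGF system that were tested, 0, 2 and 2 fell and 1, 1 and 1 rose in depression-susceptible, anxiety-susceptible and insusceptible rats. Igf1r, the IGF1 receptor through which IGF2 signals, differed by 0.21 (adjusted p = 0.397), 0.67 (adjusted p = 0.0594) and 0.73 (adjusted p = 0.0506), none past limma's threshold. Insr, the insulin receptor, was -0.18 in depression-susceptible rats (adjusted p = 0.306) and fell, with log2 differences of -0.75 in anxiety-susceptible (adjusted p = 0.025) and -0.66 in insusceptible rats (adjusted p = 0.031). It was dim, and with normexp on the arrays it could be fitted on the last 2 differences were 0.094 and 0.060. Igf2r, the clearance receptor, was -0.23 (adjusted p = 0.163) in depression-susceptible rats and fell, with log2 differences of -0.52 (adjusted p = 0.0313) and -0.54 (adjusted p = 0.0296) in the other groups, and under quantile normalization both missed the threshold, at -0.18 and -0.22. Igfbp1, another binding protein, rose by 0.71, 0.57 and 0.56, none of which passed under quantile normalization. Igf1, Igfbp5 and Igfals were too dim to test.

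The thyroid hormone and retinoid genes surround the cargo of transthyretin. Of 18, 2, 4 and 4 fell and 0, 0 and 2 rose in the 3 comparisons. Stra6, the cell surface receptor for retinol-binding protein, fell, with log2 differences of -1.08 (adjusted p = 0.0173), -0.95 (adjusted p = 0.0213) and -0.75 (adjusted p = 0.0319) in depression-susceptible, anxiety-susceptible and insusceptible rats by limma. It lay below control in anxiety-susceptible rats, where Ttr lay above. Aldh1a2, which makes retinoic acid and is also a meningeal gene, was 0.38 (adjusted p = 0.102) and -0.38 (adjusted p = 0.0852) in depression-susceptible and anxiety-susceptible rats and rose by 1.09 in insusceptible rats (adjusted p = 0.0145).

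Thyroid hormone target and receptor genes did not share one direction. Klf9, a transcription factor gene induced by thyroid hormone and by glucocorticoids, fell, with log2 differences of -1.06 in anxiety-susceptible rats (adjusted p = 0.014) and -0.50 in insusceptible rats (adjusted p = 0.0467; not past the threshold under quantile normalization). Hr, a corepressor gene that thyroid hormone induces, rose by 0.86 in insusceptible rats (adjusted p = 0.0269; 0.62 and not past the threshold under quantile normalization). Thra, the thyroid hormone receptor alpha, was 0.22 (adjusted p = 0.24), -0.39 (adjusted p = 0.0783) and -0.22 (adjusted p = 0.23) in depression-susceptible, anxiety-susceptible and insusceptible rats.

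Sostdc1 acts on BMP and Wnt signals, and of 22 genes of these pathways 0, 5 and 2 fell and 0, 0 and 1 rose. In depression-susceptible rats the 0 calls by limma stand beside 3 lower and 4 higher at an unadjusted p under 0.05, and beside 4 lower and 6 higher over 16 arrays. Id4, a target of BMP signalling, fell, with log2 differences of -0.57 in anxiety-susceptible (adjusted p = 0.0236) and -0.57 in insusceptible rats (adjusted p = 0.0242), and Smad1, a BMP signal transducer, fell by 0.60 in anxiety-susceptible rats (adjusted p = 0.0239). Dkk3, a secreted protein of the Dickkopf family, fell, with log2 differences of -1.15 (adjusted p = 0.026) and -1.38 (adjusted p = 0.0202) in anxiety-susceptible and insusceptible rats. Grem1, another secreted BMP antagonist, fell by 0.55 in anxiety-susceptible rats (adjusted p = 0.0301). Axin2, a feedback target of Wnt signalling, rose by 0.69 in insusceptible rats (adjusted p = 0.0253; 0.46 and not past the threshold under quantile normalization). Lrp4, a receptor that binds Sostdc1, was 0.31 (adjusted p = 0.0949), 0.078 (adjusted p = 0.561) and 0.11 (adjusted p = 0.407) in the 3 comparisons.

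For the lysophosphatidic acid made by Enpp2, 1, 5 and 5 of 11 genes fell and 0, 0 and 1 rose. Lpar1, a receptor gene expressed in oligodendrocytes, was 0.027 (adjusted p = 0.855), -0.16 (adjusted p = 0.274) and -0.12 (adjusted p = 0.389), and under quantile normalization 0.26 and 0.30 in the last 2 groups. Lpar4, another receptor gene, fell, with log2 differences of -0.99 in anxiety-susceptible (adjusted p = 0.015) and -0.65 in insusceptible rats (adjusted p = 0.0292). Lpar3 was dim; it fell, with log2 differences of -0.73 in depression-susceptible (adjusted p = 0.0336) and -0.57 in anxiety-susceptible rats (adjusted p = 0.0432), and was at least 1.72-fold lower in insusceptible rats (adjusted p = 0.0163), where it was not well above background. With normexp on the arrays it could be fitted on, Lpar3 lay above control in the last 2 groups, at 0.48 in anxiety-susceptible rats (adjusted p = 0.0229 by limma, past the threshold as a rise) and 0.34 in insusceptible rats (adjusted p = 0.0582), so its direction depends on the background correction. Plpp3, which breaks lysophosphatidic acid down, fell, with log2 differences of -1.02 (adjusted p = 0.0245) and -0.71 (adjusted p = 0.0458) in anxiety-susceptible and insusceptible rats, the second not past the threshold under quantile normalization.

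Of the relatives of Enpp2, Enpp5 fell, with log2 differences of -0.89 in anxiety-susceptible (adjusted p = 0.0132) and -0.74 in insusceptible rats (adjusted p = 0.017), and Enpp3 fell by 0.90 in insusceptible rats (adjusted p = 0.0227). Neither was called in depression-susceptible rats, where Enpp2 was 4.79-fold lower than in control rats. That a gene passed in one group and not in another was not tested as a difference between the groups.

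Of 8 paraoxonase and lipoprotein genes 1, 4 and 2 fell and 0, 0 and 1 rose. Pon3, a paralogue of Pon1 that stands next to it in the genome, fell, with log2 differences of -1.57 (adjusted p = 0.00757), -0.88 (adjusted p = 0.0244) and -1.64 (adjusted p = 0.0107) in depression-susceptible, anxiety-susceptible and insusceptible rats. Pon2, the broadly expressed paralogue, was -0.31 (adjusted p = 0.0883) in depression-susceptible rats and fell, with log2 differences of -0.89 (adjusted p = 0.0125) and -0.95 (adjusted p = 0.0123) in the other groups. Apoe, the main apolipoprotein of the brain, fell by 0.57 in anxiety-susceptible rats (adjusted p = 0.0354; -0.076 and not past the threshold under quantile normalization). Scarb1, a receptor for high-density lipoprotein, fell by 0.67 in anxiety-susceptible rats (adjusted p = 0.028) but was 0.076 with normexp on the arrays it could be fitted on, and Abca1, a cholesterol exporter, rose by 0.52 in insusceptible rats (adjusted p = 0.0387).

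Genes called among other proteins that the choroid plexus secretes did not share one direction, though most of the list lay below control. In depression-susceptible, anxiety-susceptible and insusceptible rats 7, 10 and 9 genes lay below. Their median differences were -0.31, -0.48 and -0.55, and -0.03, -0.27 and -0.15 under quantile normalization. Of 11 genes, 10 of them with a fit in depression-susceptible rats, 1, 2 and 3 fell and 2, 1 and 1 rose. Ace, the angiotensin-converting enzyme, fell, with log2 differences of -2.45 (adjusted p = 0.00413), -1.11 (adjusted p = 0.0202) and -2.30 (adjusted p = 0.00759) in depression-susceptible, anxiety-susceptible and insusceptible rats. Vegfa, the endothelial growth factor, rose by 0.77 (adjusted p = 0.0281), 0.62 (adjusted p = 0.0357) and 0.63 (adjusted p = 0.0358). Cp, the copper carrier ceruloplasmin, rose by 1.09 in depression-susceptible rats (adjusted p = 0.0477), a call lost without control replicate 1, 2 or 4 and without depression-susceptible replicate 1, 2 or 4. Slit2, an axon guidance protein, fell, with log2 differences of -0.48 in anxiety-susceptible (adjusted p = 0.0479; not past the threshold under quantile normalization) and -0.75 in insusceptible rats (adjusted p = 0.0228), and Mdk, the growth factor midkine, fell by 1.75 in insusceptible rats (adjusted p = 0.0337) with its probe well above background on 1 of 4 control arrays.

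**Figure D4:**
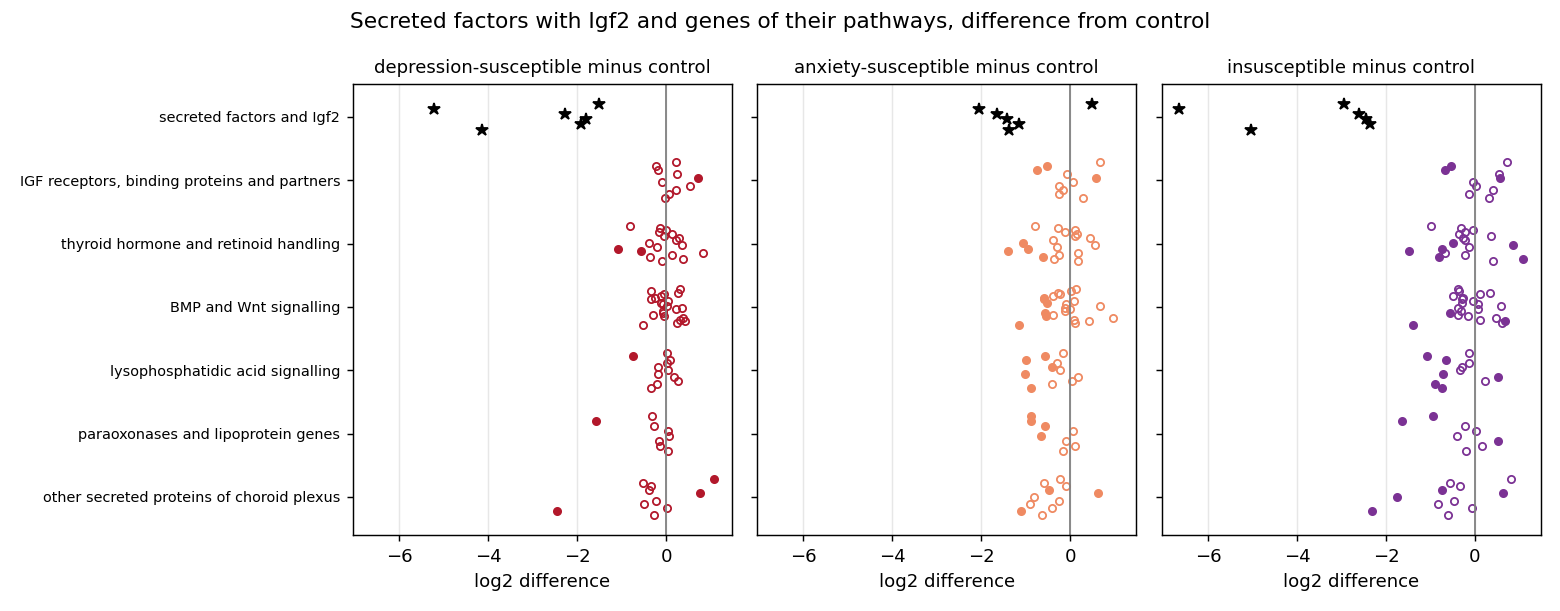
Log2 difference from control (horizontal axis) of the 6 genes (stars) and of 6 lists of genes from their pathways (circles, 1 row per list) in depression-susceptible, anxiety-susceptible and insusceptible rats, from left to right. Filled circles passed limma's threshold; 8, 24 and 25 did so, while the 6 genes have medians of -2.08, -1.40 and -2.77.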

How the data were processed

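Hippocampal RNA was measured on 16 arrays of design 026403. The authors' scanner files hold spot intensity; per the file headers it was extracted with Feature Extraction 11.0.1.1 (protocol GE1_1100_Jul11), which subtracts background within an array, and arrays were not scaled to each other. An rn4 build is named in them. The authors also deposited a table of log2 values, in which the columns share their quantiles and which was an alternative here; how it was made is not stated. Its column medians were about 7.49, 24484 probes matched scanner probes, and each of the 16 columns correlated best with its own array, at 0.998 or more; its centring was not needed for differences.

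Flagged and control spots were left out, spots of a probe were averaged, and log2 processed signals were lowered by the 75th percentile of each array. Of 15323 probes with a messenger RNA target, 14274 matched a symbol in the RefSeq names of assembly GRCr8. The 17880 probes well above background on at least 4 of 16 arrays were tested, of 24684, and where a symbol had several the brightest was used. limma 3.58.1 in R 4.3.3 was fitted to 6 samples with a threshold of 0.05 on the adjusted p, two-sided. Tables and plots were made with Python 3.11.15 (numpy 2.4.6, pandas 2.3.3, matplotlib 3.10.9). Per array, 62.2% to 74.4% of probes exceeded background clearly, with 0 saturated spots; the median local background was 46.0 to 49.8 units on insusceptible arrays and 29.2 to 33.3 on the others. The number of arrays limits the precision.

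On simulated data for depression-susceptible against control over 17880 probes, 99% of 100 probes changed 1.5-fold and 100% of 100 changed 2-fold were called, beside 12 unchanged probes. Every simulated probe had the same spread, the median SD between the 2 control samples, while real spreads differ between probes. These shares therefore do not carry over to the arrays, where a probe not called may still differ 1.5-fold. The 6 genes, the gene lists and the alternatives were chosen with earlier results of these data known. Genes named from each pathway list are those called, the 5 with the largest differences where more were called, and the receptors and partners Igf1r, Igf2r, Thra, Lpar1, Lrp4 and Pon2; marker genes are among the 4 brightest of each list, save those said to be chosen after their values were seen. Some genes that this rule picks are not reported here. Alternatives were 16 arrays as samples, normexp background correction (offset 50), quantile normalization, the deposited table, no filter, a stricter filter, blocks for slide and replicate number, the mean over the probes of a gene, and leaving out arrays. No mean-signal column was among those read, so normexp used the median signal and background. It could not be fitted on control replicate 3 and insusceptible replicate 2, and a version without these arrays was added after seeing the data.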

Additional observations from a re-analysis of the deposited data

Results flagged for a closer look

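Ttr went in opposite directions in stressed groups: its log2 level was -1.50 from control in depression-susceptible rats and 0.48 in anxiety-susceptible rats, with every array of the first group below and every array of the second above all control arrays. The same held between anxiety-susceptible rats (0.48) and insusceptible rats (-2.93). The difference between the groups was not tested, since Ttr was chosen with these values known, and anxiety-susceptible and insusceptible arrays each lay on a slide of their own. No array stood apart within its group for any of the 6 genes.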

How the results depend on the processing

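Direction held for all 6 genes in all 3 comparisons under every alternative computed. Only background correction, normalization, the deposited table and leaving out arrays could move these differences. Ttr in anxiety-susceptible rats ranged over 0.35 to 0.61. In insusceptible rats Sostdc1 ranged over -6.69 to -5.13 and Pon1 over -5.66 to -1.51. The median of the 6 genes, in the order depression-susceptible, anxiety-susceptible and insusceptible here and below, was -1.94, -1.22 and -2.49 with normexp, -2.06, -1.31 and -2.51 with normexp without the 2 arrays it could not be fitted on, -1.84, -0.99 and -2.32 under quantile normalization and -1.85, -0.995 and -2.31 in the deposited table. Leaving out 1 array or sample gave medians of -2.19 to -1.98, -1.50 to -1.30 and -2.91 to -2.62.

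Counts depended on the fit. Probes called were 1715, 5512 and 5373 with 6 samples. They were 8893, 12861 and 13035 with 16 arrays as samples, and 10206, 10350 and 10409 with slide as a random block. limma called 0, 0 and 0 with normexp (476, 857 and 867 at an unadjusted p under 0.05), and 1445, 9593 and 9590 without the 2 arrays. With no filter 969, 2342 and 7828 were called. Slide as a block gave 6677 in depression-susceptible rats. Leaving out 1 array or sample gave 381 to 1715, 1492 to 5620 and 1606 to 5522, the low ends with 1 of the slide 1 or slide 2 samples missing, where fewer samples remained. Pathway genes called, 8, 24 and 25, came to 46, 58 and 64 with 16 arrays, 0, 0 and 0 with normexp, 3, 7 and 21 with no filter, 50, 48 and 52 with the random block and 31 with the slide block in depression-susceptible rats. They ranged over 1 to 8, 4 to 25 and 8 to 26 when 1 array or sample was left out.

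Same-numbered arrays did not pair: over 24 pairs of the same number the deviations correlated at a median of 0.008 (-0.55 to 0.13). With the replicate number as a block 8364, 12524 and 12681 probes and 43, 57 and 64 pathway genes were called.

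Single genes turned sign as follows. With normexp Igfbp1 was -0.31 in depression-susceptible rats, and Insr and Lpar3 were 0.049 and 0.25 in insusceptible rats. With normexp without the 2 arrays Insr, Lpar3 and Scarb1 were 0.094, 0.48 and 0.076 in anxiety-susceptible rats, and Insr and Lpar3 were 0.060 and 0.34 in insusceptible rats. Lpar1 was 0.26 and 0.30 in anxiety-susceptible and insusceptible rats under quantile normalization, and 0.27 and 0.30 in the deposited table, where Cfap126 was 0.95 in anxiety-susceptible rats. Leaving out 1 sample or array brought Lpar1 in depression-susceptible rats to between -0.016 and 0.069. Of 84 calls of the reported genes picked by the naming rule, 71 were kept under quantile normalization, 68 in the deposited table and 55 with no filter. Without 1 sample of slide 1 or 2, 39 to 41 were kept, and without 1 array 74 to 84; single arrays ended calls of Cp, Lpar3, Igfbp1, Wfs1, Dynlrb2 and Ahsp in depression-susceptible rats, of Igf2r, Insr, Igfbp1, Lpar3, Scarb1, Apoe and Slit2 in anxiety-susceptible rats, and of Insr, Igfbp1, Klf9, Plpp3, Abca1, Cnp and Serpina1 in insusceptible rats. The causes were not tested. Dim probes such as Pon1 in insusceptible rats are limited by signal over background.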
